A study of Gallus gallus with 3 samples.

Results

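*PRRX1* (paired related homeobox 1, identifier ENSGALG00000003324) is followed here through the cell populations of the embryonic chicken foot. It is 1 of 11442 genes in the deposited count tables and was taken by its identifier, with 9075, 19137 and 14109 molecules counted at the Hamburger-Hamilton stages HH25, HH29 and HH31. A molecule is a unique molecular identifier (UMI), a random tag that lets amplified copies of 1 captured transcript be counted once. Levels are given in CPM, the *PRRX1* UMIs of a population per 1000000 UMIs of that population. *PRRX1* was high in proliferating mesenchyme, non-skeletal connective tissue and parts of the interdigit (the tissue between digits). It was lower in skeletal cells and in the distal mesenchyme, and lowest in the skin of HH25.

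PRRX1 is a homeodomain transcription factor that is made in the mesenchyme of the early limb bud and is used as a marker of that tissue. In the mouse a *Prrx1* enhancer is used to switch genes in limb mesenchyme, and loss of *Prrx1* disturbs skeletal elements, more so in the digits when its paralog *Prrx2* is lost as well. Limb mesenchyme of lateral plate origin gives rise to cartilage, tendon and other connective tissue, whereas the skin is ectoderm, limb muscle precursors migrate in from the somites, and blood cells and endothelium have other origins.

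The samples were hindlimbs of *Gallus gallus* without any treatment named in the labels, and strain, sex and number of embryos are not given in the sources used here. The HH25 library held the whole autopod (the foot plate), the HH29 library digits 3 and 4 together with interdigit tissue next to them, and the HH31 library the tip of digit 4. Cells were freed with trypsin, and HH25 and HH31 were run on the 10x version 2 system and HH29 by DropSeq, both droplet methods. The tables kept 5938, 6806 and 4796 cells after filtering, with medians of 2046, 2946 and 2482 UMIs per cell, and 48 cell barcodes occurred at both HH25 and HH31. There was 1 library per stage. Stage, platform and dissection therefore cannot be told apart, populations are compared within a stage, no p-value is given, and every interval is an exact 95% interval that covers counting error only. HH29 consisted of 3 technical replicates. Whether these were separate dissociations or separate runs of 1 cell suspension is not given, and their spread is not read as a spread between embryos. Populations are the authors' deposited fine sub-clusters, written with their stage (HH29-13 is sub-cluster 13 of HH29), and *PRRX1* itself was among the genes of the clustered cells.

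Across the whole library, *PRRX1* stood at 659, 802 and 1062 CPM in the HH25, HH29 and HH31 libraries, and 59.8%, 66.9% and 72.6% of cells held at least 1 UMI of it. The proliferating mesenchyme (HH25-1, HH29-5, HH29-13 and HH29-16, HH31-7, HH31-9 and HH31-11) contained 68.5%, 30.2% and 27.6% of the cells of the 3 stages but 82.3%, 47.1% and 43.1% of the *PRRX1* UMIs. The skeletal sub-clusters contained 14.6%, 14.1% and 20.8% of the cells and 7.70%, 5.14% and 11% of the UMIs. At each stage *PRRX1* was thus over-represented in mesenchyme and under-represented in skeletal cells relative to their cell numbers.

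At HH25 the order of levels began with the non-skeletal connective tissue (nsCT, HH25-2) at 823 CPM (762 to 888) and the mesenchyme (HH25-1) at 779 CPM (762 to 797), whose ratio had an interval that included 0 on the log2 scale. There followed early chondrocytes (HH25-4, cartilage-forming cells) at 384 CPM, the blood sub-cluster (HH25-3) at 322 CPM and the distal mesenchyme (HH25-5) at 262 CPM, each within counting error of its neighbour. The early chondrocytes (356 to 414) and the distal mesenchyme (214 to 317), which are not neighbours in this order, had intervals that did not overlap. Muscle (HH25-6) reached 126 CPM (86.0 to 177). The apical ectodermal ridge (AER, HH25-7), the signalling epithelium at the limb tip, gave 35.0 CPM from 2 UMIs in 24 cells, and the skin (HH25-8) gave 9.07 CPM from 5 UMIs in 216 cells. Of the 7 neighbouring pairs in this order, 2 differed beyond counting error, which were mesenchyme over early chondrocytes and distal mesenchyme over muscle.

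At HH29 the nsCT with high *NR2F2* (HH29-9) had 1402 CPM, the interdigit behind digit 4 (HH29-2) 1306 CPM, the undifferentiated mesenchyme (HH29-13) 1303 CPM, the *PCNA*-rich mesenchyme (HH29-16) 1241 CPM and the mitotic mesenchyme (HH29-5) 1201 CPM. The nsCT with high *CRABP-I* (HH29-4) had 1063 CPM and the *RDH10*-rich interdigit (HH29-12) 1024 CPM. A step separated these 7 from the distal mesenchyme (HH29-8, 544 CPM), the early chondrocytes (HH29-15, 516 CPM), the remaining interdigit (HH29-6, 417 CPM) and HH29-14 (247 CPM), which carries no class here. The lowest sub-clusters were smooth muscle (HH29-7, 183 CPM), forming joint (HH29-17, 183 CPM), late chondrocytes (HH29-3, 179 CPM), leukocytes (HH29-18, 170.3 CPM), skin (HH29-1, 139 CPM), muscle (HH29-11, 130.0 CPM) and endothelium (HH29-10, 38.9 CPM). Of the 17 neighbouring pairs 6 differed beyond counting error, and 5 of these kept their order in each of the 3 technical replicates, the exception being HH29-6 over HH29-14. Among these 5, HH29-13 over HH29-16 lay at the boundary, with a log2 ratio of 0.070 (9.1e-05 to 0.14).

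At HH31 sub-cluster 6 had 1839.5 CPM (1761 to 1921). The study's marker table names it skin, but *EPCAM*, an epithelial adhesion gene, had 13.3 CPM in it, against 278 CPM in the skin HH31-5 and 11.8 CPM in the mesenchyme, so it is kept by number. The nsCT (HH31-3) had 1784 CPM, and 3 mesenchymal sub-clusters followed, at 1676 CPM (HH31-9), 1641 CPM (HH31-11) and 1449 CPM (HH31-7). The interdigit (HH31-10) had 1216 CPM and the *RDH10*-rich interdigit (HH31-4) 851 CPM, above early chondrocytes (HH31-2) at 766 CPM and distal mesenchyme (HH31-8) at 534 CPM. Late chondrocytes (HH31-1) had 255 CPM and skin (HH31-5) 58.7 CPM. In this library 7 of 10 neighbouring pairs lay apart, and neighbours among the 4 highest sub-clusters lay within counting error. The outer members of these 4, HH31-6 (1761 to 1921) and HH31-11 (1567 to 1718), had intervals that did not overlap.

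**Figure D1:**
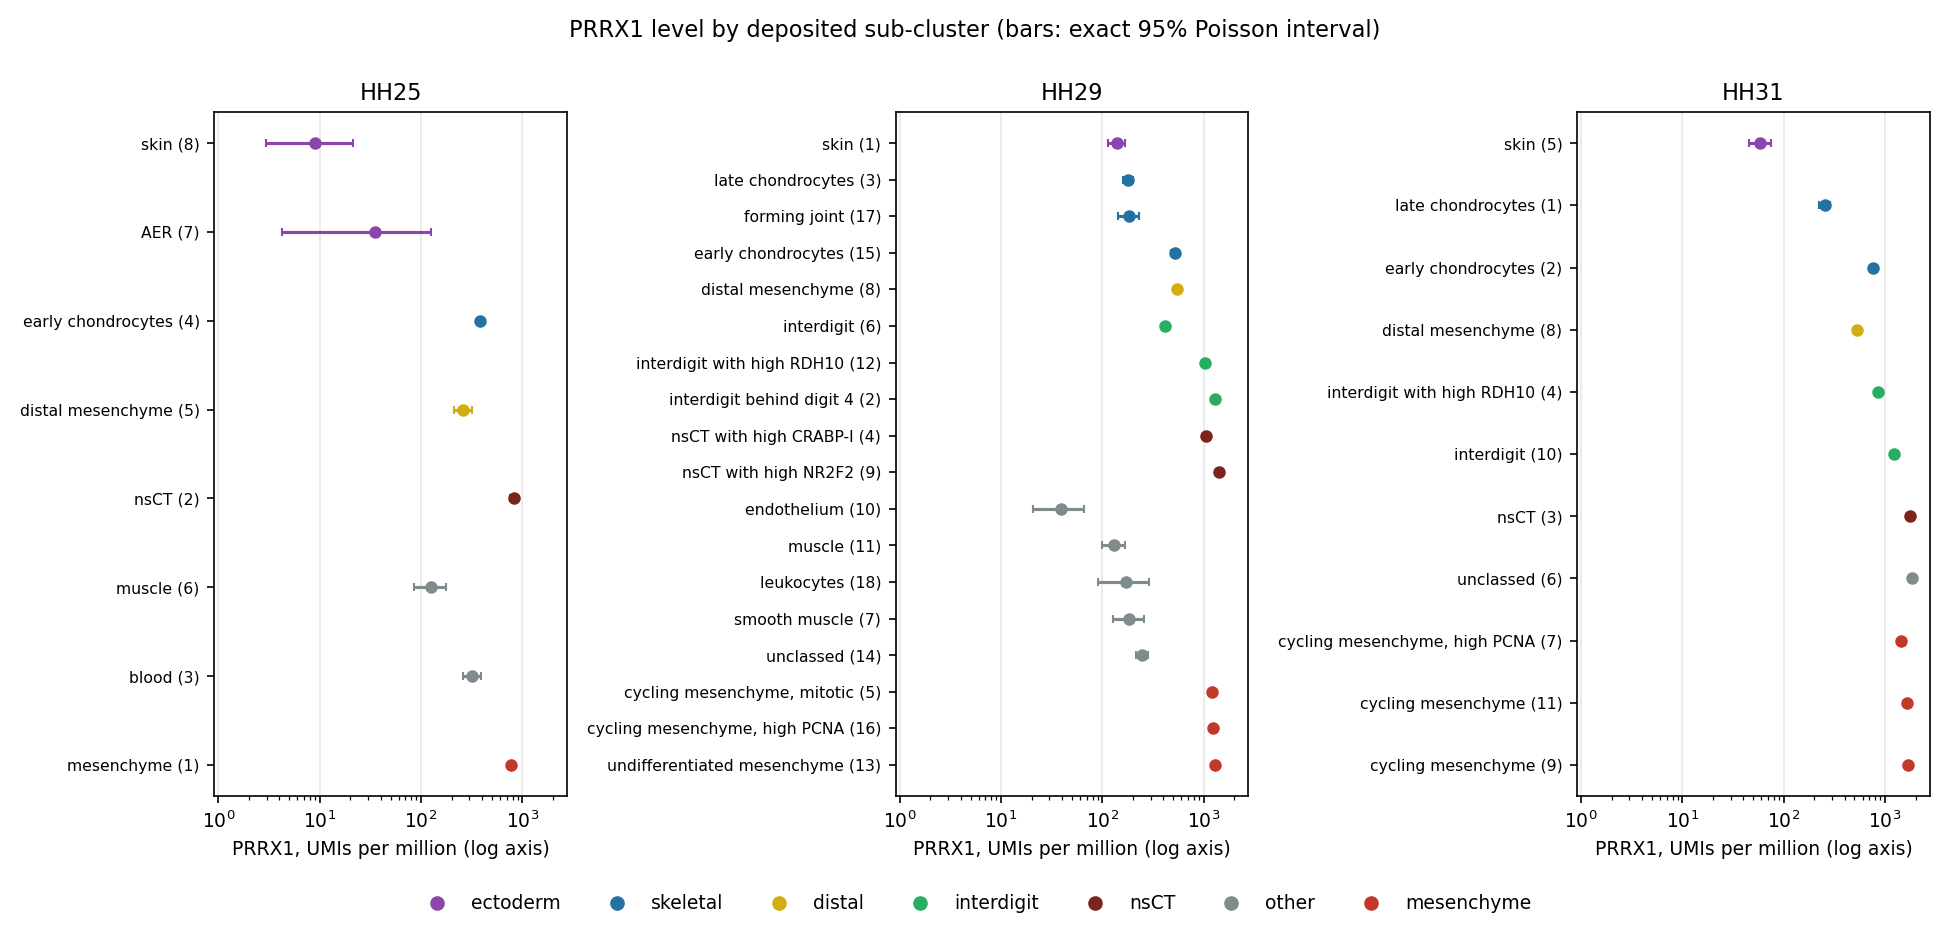
PRRX1 level in UMIs per 1000000 (log axis) in each deposited sub-cluster of HH25, HH29 and HH31, with points coloured by class, sub-cluster numbers in parentheses and bars for the exact 95% Poisson interval. Mesenchyme and nsCT lie toward the right of each panel, with the interdigit HH29-2 among them at 1306 CPM. The highest point is unclassed sub-cluster 6 of HH31 at 1839.5 CPM, and ectoderm and endothelium lie to the left.

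Ectoderm should lack *PRRX1* and was used as the reading of background, such as free RNA in droplets. At HH29 the skin was not the lowest such reading, since the endothelium lay below it, at 38.9 CPM against 139 CPM, a log2 ratio of −1.84 (−2.79 to −0.999). The log2 ratio of ectoderm to mesenchyme was −6.08 (−7.40 to −5.04) for HH25, −3.17 (−3.47 to −2.89) for HH29 and −4.73 (−5.10 to −4.38) for HH31, so that ectoderm held 1.48%, 11.1% and 3.77% of the mesenchymal level. Of all genes tested in these comparisons, 13.9%, 12.3% and 21% had a log2 ratio of −1 or less, and 0.0365%, 0.420% and 0.124% had a ratio as low as that of *PRRX1* or lower. For these shares a count of 0 was set to 3 UMIs. A gene without an ectodermal UMI, such as *HAND2* at HH25 (0 UMIs against 279 in mesenchyme), could therefore rank above *PRRX1*. The small shares thus depend on the high count of *PRRX1* in mesenchyme. Other mesenchymal transcription factors were also counted there. *TWIST1*, a bHLH factor of limb mesenchyme, stood in ectoderm at 2.38%, 6.47% and 2.88% of its mesenchymal level from 1, 12 and 2 UMIs, and *PRRX2* at 8.06%, 21% and 9.91% from 3, 18 and 10 UMIs. Of the 20 listed factors of limb mesenchyme, 13 of 17, 14 of 17 and 12 of 15 measured members had a ratio of −1 or less in ectoderm. A ratio of 1 or more was found for 2, 0 and 0 of them. The share of all genes in that direction is not given here, so these counts are not read further. Some listed factors lay closer to their mesenchymal level than *TWIST1*. In ectoderm *SNAI2* stood at 53.8%, 66.04% and 62.3% of that level and *MSX1* at 36.7%, 35.8% and 26.9%.

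The ectodermal value at HH29 depended on the technical replicate. The skin had 40.5 CPM (19.4 to 74.5) in replicate 1, 206 CPM (154 to 271) in replicate 2 and 169 CPM (121 to 229) in replicate 3, a 5.10-fold range, against 1425, 1176 and 1088 CPM in the mesenchyme. Replicate 1 was thus the lowest for skin and the highest for mesenchyme. The log2 ratio was −5.14 in replicate 1, −2.51 in replicate 2 and −2.69 in replicate 3, and it was −2.61 without replicate 1 and −3.65 without replicate 2. *PITX1*, a hindlimb identity factor, gave 44.6, 67.5 and 74.1 CPM in the skin of the 3 replicates, and the epithelial *EPCAM* gave 892, 754 and 811 CPM. *PRRX1* in this skin was uneven between cells, with 1, 8 and 5 cells of 54, 71 and 57 that held 3 or more UMIs and 46, 53 and 45 cells that held none. Whether these cells are doublets or misassigned cells was not tested.

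Each cell was thinned to 1000 UMIs and the share of cells with *PRRX1* was taken. The whole interval of this share lay above that of the ectoderm in 26 of the 33 other sub-clusters. The share was 48.1%, 62.2% and 70.3% in the mesenchyme of the 3 stages, against 1.67%, 9.89% and 2.45% in ectoderm. The median depths before thinning were 2081, 3103 and 2675 UMIs in mesenchyme and 2081, 3234 and 2552 UMIs in ectoderm. The unthinned shares were 69.7%, 84.9% and 89.0% in mesenchyme and 2.92%, 20.9% and 9.26% in ectoderm. The 7 sub-clusters whose intervals overlapped that of the ectoderm all came from HH29, namely late chondrocytes, smooth muscle, endothelium, muscle, HH29-14, forming joint and leukocytes. Their shares were thus not separable from that of the skin of HH29, which itself varied between replicates. By CPM, late chondrocytes and HH29-14 lay above this skin, with log2 ratios of 0.37 (0.05 to 0.70) and 0.83 (0.49 to 1.179), so that no call of background is made for them.

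*PRRX1* was also counted in muscle and blood sub-clusters, whose cells do not come from the limb mesenchyme. Muscle stood at 16.1% of the mesenchymal level at HH25 and 10.4% at HH29. The blood sub-cluster of HH25 stood at 41.3%, with 98 UMIs in 148 cells. Haemoglobin transcripts made up at least 1% of the UMIs in only 64 of these cells. *PRRX1* was at 389 CPM (280.0 to 525) in those 64 cells and at 285 CPM (215 to 370.2) in the other 84, with intervals that overlap. Of other mesenchymal factors, *PITX1* stood there at 88.5% of its mesenchymal level (24 UMIs), *PRRX2* at 75.1% (14 UMIs), *MSX1*, a homeobox gene of limb mesenchyme, at 40.7% (25 UMIs) and *TWIST1* at 19% (4 UMIs). The part of mixed droplets in these values was not tested.

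Within the mesenchymal lineage the first comparison set skeletal cells against the proliferating mesenchyme, which bears on the question of how far *PRRX1* is retained once cells commit to cartilage. The log2 ratio was −1.02 (−1.13 to −0.91) for HH25, −2.09 (−2.18 to −1.99) for HH29 and −1.42 (−1.50 to −1.34) for HH31. Over all genes the medians of this ratio were −0.17, −0.04 and −0.28. At HH29 the 3 technical replicates gave −2.05, −2.11 and −2.15, from 345, 273 and 245 CPM in skeletal cells against 1425, 1176 and 1088 CPM in mesenchyme, and the groups did not overlap. Of all genes, 9.95%, 5.82% and 12.1% were lower by a log2 ratio of 1 or more, and 9.55%, 0.823% and 6.83% had a ratio at or below that of *PRRX1*. The HH25 value depended on the clustering and on how rebuilt clusters were given a class. When cells were clustered again without *PRRX1*, 3 rebuilt clusters matched HH25-4 best and the ratio was −0.30 (−0.37 to −0.22). The rebuilt cluster of 630 cells with a Jaccard index of 0.633 had 269 CPM, and those of 536 and 316 cells, with indices of 0.104 and 0.0872, had 1041 and 611 CPM. The deposited HH25-4 had 384 CPM. Clusters with indices of 0.104 and 0.0872 overlapped little with HH25-4, so that −0.30 does not describe the cells of HH25-4 alone.

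The other genes of the limb mesenchyme list were lower in skeletal cells in many cases. Of the same 20 factors, 8 of 16, 12 of 17 and 9 of 15 measured members had a log2 ratio of −1 or less, against the 9.95%, 5.82% and 12.1% of all genes just given, and 0, 1 and 1 had a ratio of 1 or more. Their medians were −0.86, −1.30 and −1.19. Among them *TWIST1* had ratios of −1.30, −1.24 and −1.01, *MSX1* of −2.57, −1.35 and −1.54, and *ZFHX3*, a zinc finger homeobox gene found in the nsCT, of −1.33, −2.14 and −2.10. *SNAI1*, an epithelial-mesenchymal transition factor, went the other way, with 0.92, 1.08 and 1.17. In contrast, cartilage genes were higher in 8 of 9, 10 of 10 and 9 of 9 measured members, where 4.77%, 7.01% and 4.32% of all genes were higher by this rule, with medians of 3.22, 4.59 and 4.07. Some of these cartilage genes also served as marks of the skeletal sub-clusters, so their counts are not independent evidence. Matrix and adhesion genes that have been linked to PRRX1 were mixed, with 0 of 5, 2 of 6 and 1 of 5 lower, 2, 0 and 0 higher, and medians of 0.70, −0.25 and −0.26. *CDH2*, which encodes N-cadherin, had ratios of −0.56, −1.48 and −1.34, and *CDH11*, another mesenchymal cadherin, of 0.70, 0.56 and 0.96.

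Within the skeletal cells, *PRRX1* was lower in late than in early chondrocytes. At HH29 the late chondrocytes had 179 CPM and the early chondrocytes 516 CPM, a log2 ratio of −1.52 (−1.72 to −1.33). The technical replicates gave 187, 188 and 150 CPM in late chondrocytes, against 640.5, 463 and 397 CPM in early chondrocytes, without overlap. At HH31 late chondrocytes had 255 CPM and early chondrocytes 766 CPM, a ratio of −1.58 (−1.79 to −1.39). Cells of the forming joint, the future articulation, were not separable from late chondrocytes at HH29, with a log2 ratio of 0.03 (−0.38 to 0.41).

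*PRRX1* was then compared between skeletal cells with a low and a high share of cartilage transcripts. Within each skeletal sub-cluster, cells were divided into 4 bins of equal size by the share of their UMIs that came from 10 cartilage genes, among them *COL2A1*, *COL9A1* and *ACAN*, which encode cartilage matrix, and *SOX9*, the regulator of chondrocyte fate. These genes were left out of the denominator. Pooled over the sub-clusters of HH29, *PRRX1* stood at 499, 368, 227 and 72.4 CPM in bins 1 to 4, a log2 ratio of the highest to the lowest bin of −2.78 (−3.21 to −2.38). The value fell at each step, while the median depth of the bins stayed between 2757 and 3215 UMIs. At HH31 the values were 783, 640.5, 562 and 327 CPM, a ratio of −1.26 (−1.50 to −1.03). At HH25 they were 419, 470.0, 328 and 291 CPM, a ratio of −0.52 (−0.87 to −0.18), in cells whose median cartilage share was 0% in the lowest bin and 0.172% in the highest. The part of mixed droplets or misassigned cells in these bins was not tested.

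Each of the 5 skeletal sub-clusters of HH29 and HH31 had the same direction on its own. In late chondrocytes, *PRRX1* had 44.1 CPM in the highest and 350.0 CPM in the lowest bin at HH29, and 61 CPM in the highest and 411 CPM in the lowest bin at HH31, ratios of −2.99 and −2.75. In early chondrocytes it had 116 CPM in the highest and 774 CPM in the lowest bin at HH29, and 449 CPM in the highest and 1038 CPM in the lowest bin at HH31, ratios of −2.74 and −1.21. The forming joint, with 7 UMIs in the highest and 30 UMIs in the lowest bin, gave −2.05 (−3.48 to −0.83). The 1038 CPM in the lowest bin of the HH31 early chondrocytes, against 1557 CPM in the mesenchyme of that library, came from cells with a median cartilage share of 0%. The 3 technical replicates of HH29 gave pooled ratios of −3.06, −2.49 and −3.29.

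**Figure D2:**
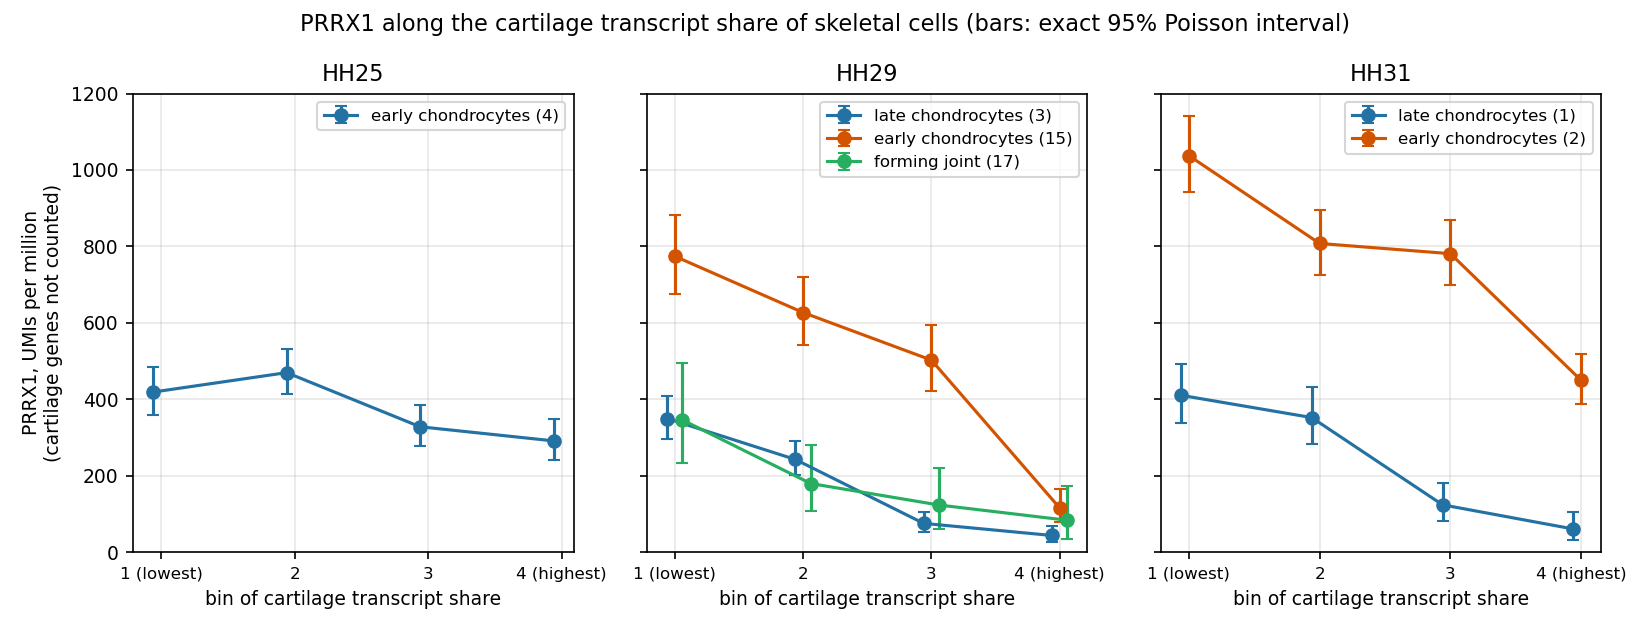
PRRX1 in UMIs per 1000000, with cartilage genes not counted, in bins of skeletal cells by cartilage transcript share, for each skeletal sub-cluster (number in parentheses) of HH25, HH29 and HH31, with bars for the exact 95% Poisson interval. The lines of HH29 and HH31 descend from bin 1 to bin 4, for late chondrocytes of HH29 to 44.1 CPM, whereas HH25 ends at 291 CPM.

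Among all genes outside the cartilage list, 3.4%, 6.24% and 4.04% were lower by a log2 ratio of 1 or more in the highest than in the lowest cartilage bin, and 16.6%, 0.229% and 2.18% had a ratio at or below that of *PRRX1*. At HH29 *TWIST2*, the second TWIST factor, had a ratio of −3.36 (−4.54 to −2.38), *MSX1* of −1.76, *TWIST1* of −1.40 and *PITX1* of −0.34. At HH31 they had −1.63 (−3.09 to −0.38), −1.57, −1.32 and −0.73, beside −1.26 for *PRRX1*. *PRRX2* had 0.05 (−1.29 to 1.399) at HH25, an interval that overlaps that of *PRRX1*, from 11 UMIs in each of the highest and lowest bins. It had −0.66 (−1.28 to −0.06) at HH29, from 38 UMIs in the highest and 64 in the lowest bin, and 0.03 (−0.81 to 0.87) at HH31, from 25 and 27 UMIs, and these intervals do not overlap those of *PRRX1*. *SOX9*, which helped to define the bins, is not evidence here.

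The distal mesenchyme, the undifferentiated cells below the limb tip that were marked in these data by *TFAP2B*, had less *PRRX1* than the proliferating mesenchyme at each stage. Its log2 ratio to mesenchyme was −1.57 (−1.87 to −1.30) for HH25, −1.21 (−1.27 to −1.14) for HH29 and −1.54 (−1.65 to −1.44) for HH31. The HH29 replicates had 616, 498 and 506 CPM in distal mesenchyme, against 1425, 1176 and 1088 CPM, and gave ratios of −1.21, −1.24 and −1.10. In rebuilt clusters, an alternative added after the data had been seen, the ratios were −0.95 (−1.06 to −0.83), −1.13 (−1.20 to −1.06) and −1.45 (−1.55 to −1.35), and the HH25 value rests on 1 rebuilt cluster of 648 cells with a Jaccard index of 0.158 and 404 CPM. With the deposited sub-clusters, a ratio as low or lower was found for 2.72%, 3.53% and 5.52% of genes. Of the limb mesenchyme factors, 0 of 16, 3 of 17 and 2 of 15 were lower by a log2 ratio of 1 or more in distal mesenchyme, where 7.9%, 4.87% and 11% of all genes were, and 3, 4 and 5 were higher, where 10.4%, 3.28% and 3.45% of all genes were. Their medians were 0.13, −0.02 and 0.15, beside −0.04, −0.03 and −0.24 over all genes. *MSX1* had ratios of 1.24, 1.13 and 0.91 and *LHX2*, a LIM homeobox gene of the distal limb, of 1.73, 2.51 and 1.33. *MSX1* is also among the genes by which the study placed this population distally. *ZFHX3* went the other way at HH29, with 76.1 CPM in HH29-8 against 331, 200 and 260 CPM in HH29-5, HH29-13 and HH29-16.

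The interdigit and the nsCT lay closer to the mesenchyme. The interdigit had a log2 ratio of −0.55 (−0.60 to −0.49) at HH29 and −0.64 (−0.71 to −0.56) at HH31. The HH29 value was −0.28 (−0.34 to −0.23) in rebuilt clusters. The interdigit sub-clusters were spread widely at HH29, where *PRRX1* in HH29-2 and HH29-12 exceeded that in HH29-6 by log2 ratios with intervals of 1.51 to 1.78 and 1.15 to 1.44. At HH31 the *RDH10*-rich interdigit was below the other interdigit, with a ratio of −0.52 (−0.64 to −0.39). At HH29 the *RDH10*-rich HH29-12 (1024 CPM) lay between HH29-2 (1306 CPM) and HH29-6 (417 CPM). *RDH10* encodes an enzyme of retinoic acid synthesis. The nsCT had ratios of 0.08 (−0.04 to 0.19) for HH25, −0.08 (−0.14 to −0.02) for HH29 and 0.20 (0.11 to 0.28) for HH31, and that of HH25 was 0.31 (0.21 to 0.41) and that of HH31 0.35 (0.28 to 0.43) in rebuilt clusters. Its sub-clusters of HH29 differed, HH29-9 being above HH29-4 by 0.40 (0.30 to 0.50).

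The paralog *PRRX2* (ENSGALG00000028236) encodes a closely related homeodomain protein. Its values in the mesenchyme rest on 587, 831 and 356 UMIs. In skeletal cells both genes were lower than in mesenchyme, *PRRX2* with log2 ratios of −1.16 (−1.60 to −0.74), −1.05 (−1.28 to −0.81) and −1.07 (−1.38 to −0.76), and its interval lay above that of *PRRX1* at HH29 only. In the deposited distal mesenchyme the genes parted. *PRRX2* had ratios of 0.10 (−0.53 to 0.66), −0.13 (−0.30 to 0.04) and 0.39 (0.13 to 0.65) there, each interval lying above that of *PRRX1*. In the interdigit *PRRX2* had 0.24 (0.08 to 0.40) at HH29 and 0.54 (0.30 to 0.77) at HH31, and again the intervals did not overlap. In the nsCT of HH31 the order was turned round, with −0.72 (−1.20 to −0.27) for *PRRX2* and 0.20 for *PRRX1*. Within the HH29 replicates, distal mesenchyme gave −0.06, 0.01 and −0.56 for *PRRX2* and −1.21, −1.24 and −1.10 for *PRRX1*, and interdigit gave 0.08, 0.47 and 0.13 for *PRRX2* and −0.53, −0.56 and −0.58 for *PRRX1*. The distal intervals of replicate 3 overlapped, −0.98 to −0.15 for *PRRX2* and −1.25 to −0.95 for *PRRX1*.

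**Figure D3:**
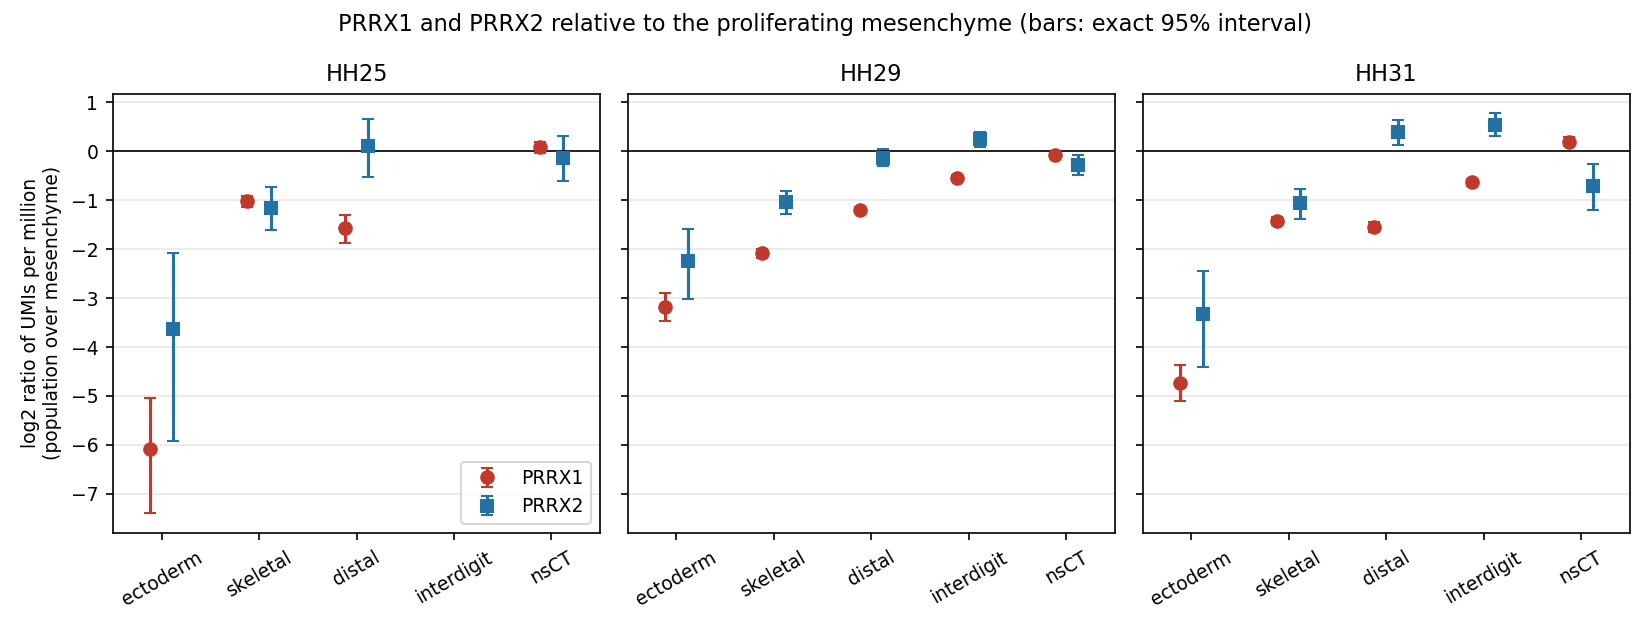
Log2 ratio of UMIs per 1000000 in ectoderm, skeletal cells, distal mesenchyme, interdigit and nsCT over the proliferating mesenchyme, for PRRX1 (circles) and PRRX2 (squares) at HH25, HH29 and HH31, with bars for the exact 95% interval; HH25 had no interdigit sub-cluster. In distal mesenchyme PRRX1 lies between −1.57 and −1.21 and PRRX2 between −0.13 and 0.39.

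The study scored each cell for the S and the G2/M phase of the cell cycle, and *PRRX1* was compared between cells of high and low score within each mesenchymal sub-cluster. The G2M score separated mitotic transcripts. At HH25 *CDC20*, a mitotic regulator, stood at 330.0 CPM in the highest and 35.0 CPM in the lowest bin by G2M score, and *PCNA*, a DNA replication clamp, at 577 CPM in the highest and 500.1 CPM in the lowest bin by S score. The S bins separated *PCNA* less, with 860 CPM in the highest and 665 CPM in the lowest bin at HH29 and 464 and 425 CPM at HH31. A small ratio by S score therefore says little about DNA replication. The S bins did separate *CDC20*, which was lower in the highest bin. It had 58.6 CPM in the highest and 223 CPM in the lowest bin at HH25, 179 and 476 CPM at HH29, and 127 and 264 CPM at HH31. By S score *PRRX1* had 792 CPM in the highest and 757 CPM in the lowest bin at HH25, 1285 and 1326 CPM at HH29, and 1494 and 1528 CPM at HH31. The log2 ratios were 0.07 (−0.03 to 0.16), −0.04 (−0.13 to 0.04) and −0.03 (−0.13 to 0.07). By G2M score it had 791 CPM in the highest and 717 CPM in the lowest bin at HH25, a ratio of 0.14 (0.05 to 0.23). At HH29 the ratio was 0.01 (−0.08 to 0.10) and at HH31 −0.10 (−0.20 to 0.01). Middle bins could differ more than the outer ones. By G2M score at HH25, bin 3 had 851 CPM (812 to 891) and bin 1 had 717 CPM (687 to 748). By S score at HH29, bin 2 had 1146 CPM (1097 to 1197) and bin 1 had 1326 CPM (1276 to 1376).

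Single sub-clusters went in both directions and stayed small. By G2M score the ratio was 0.23 (0.10 to 0.36) in the undifferentiated mesenchyme HH29-13 and −0.19 (−0.34 to −0.04) in the *PCNA*-rich HH29-16. By S score it was −0.22 (−0.38 to −0.06) in HH29-5 and 0.22 (0.03 to 0.41) in HH31-11. In the other sub-clusters the intervals included 0, apart from HH25-1, which is the whole mesenchyme of that stage. Bins of HH29 pooled the 3 technical replicates, whose mesenchyme had 1425, 1176 and 1088 CPM. Replicates 1 to 3 gave 190, 190 and 132 cells to the lowest G2M bin and 135, 246 and 134 to the highest. Within replicates the ratios over the whole mesenchyme were 0.02, 0.13 and −0.02 by G2M score and −0.05, 0.03 and −0.12 by S score. Each of these intervals included 0. Ratios of single HH29 sub-clusters were not taken within replicates. The highest bins were also shallower, with a median of 1977 UMIs per cell against 2698 in the lowest bin by G2M score at HH25, 2395 against 4117 at HH29 and 2071 against 3541 at HH31. With bins of the G2M score taken within bins of depth, an alternative added after the data had been seen, the ratios were 0.14, 0.08 and −0.05. A split of the cells at a score of 0.5 gave −0.12 (−0.19 to −0.04) for the S score at HH31. With ribosomal protein and mitochondrial genes left out of the denominator the S ratio at HH25 was 0.12 (0.03 to 0.22), and with 12 mitochondrial genes in the filter the G2M ratio at HH31 was −0.11 (−0.22 to −0.0048). These 3 intervals left out 0, which those of the reported ratios held. The G2M score was near its maximum in many cells, so that bins of some sub-clusters were weakly separated. In bins 2, 3 and 4 its median was at least 0.997 in HH29-5, 0.995 in HH31-9 and 0.992 in HH31-11. Across single cells the correlation of *PRRX1* with the S score was −0.05, −0.03 and −0.04 and with the G2M score 0.03, −0.05 and −0.02 (Pearson r over 4069, 2053 and 1322 cells), values too weak to read in sparse counts.

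**Figure D4:**
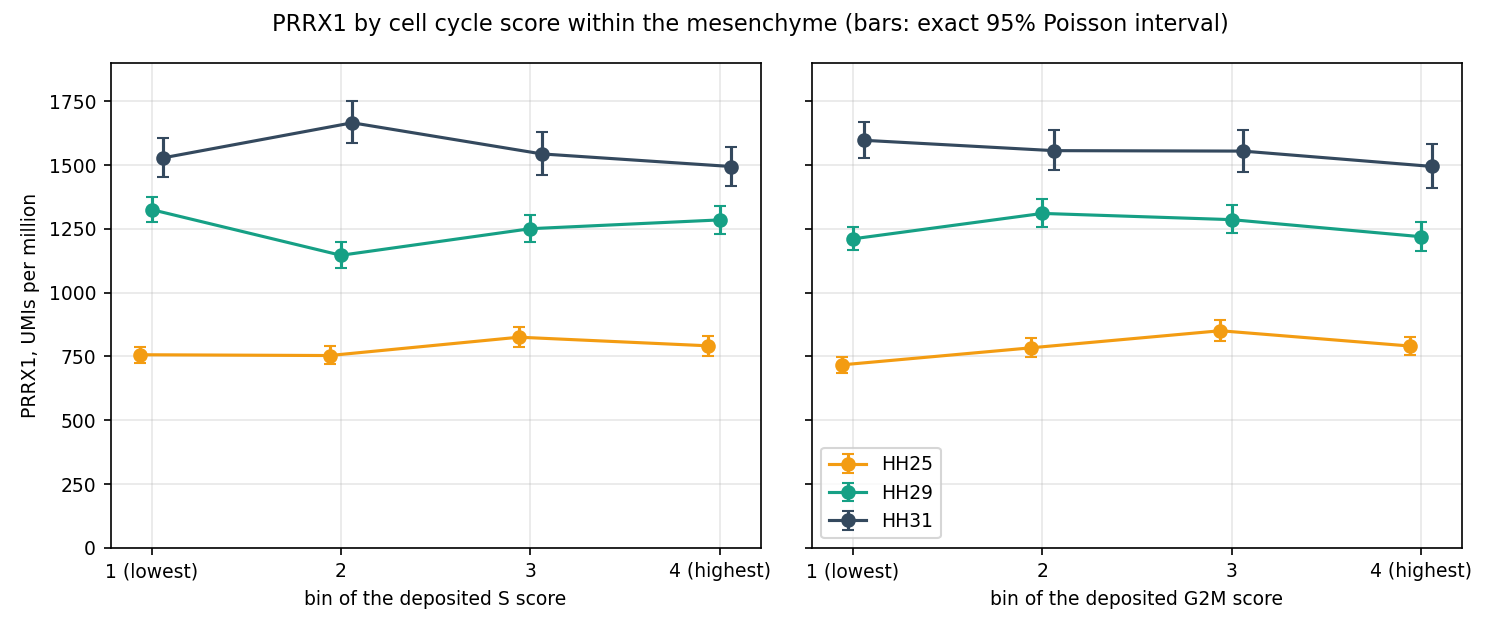
PRRX1 in UMIs per 1000000 in bins of mesenchymal cells by the deposited S score (left) and G2M score (right) at HH25, HH29 and HH31, with bars for the exact 95% Poisson interval. The lines run between 717 and 851 CPM at HH25 by G2M score, between 1146 and 1326 CPM at HH29 by S score and between 1494 and 1666 CPM at HH31 by S score.

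Cells of most sub-clusters did not share a single *PRRX1* rate. If every UMI of a sub-cluster had the same chance to be *PRRX1*, 20.5% of the HH25 mesenchymal cells would have held none, given their depths, whereas 30.3% held none. In the HH29 mesenchyme, pooled over its sub-clusters, 15.1% of the cells held none, against 4.38% under the common rate. In the HH31 mesenchyme, pooled in the same way, 11% held none against 3.27%. The observed share was above the common rate in 6 of 7, 16 of 16 and 11 of 11 sub-clusters of at least 50 cells in the HH25, HH29 and HH31 libraries. The gap was widest in HH29-14, where 75.7% of cells held none against 49.9%, and the ratio of variance to mean reached 6.10. The skin of HH25, with 97.7% observed and 97.7% under the common rate, was the exception. Single cells held up to 19, 34 and 34 *PRRX1* UMIs. Differences in capture between cells and differences in expression cannot be told apart here. The HH29 values also pool technical replicates that differed in level, and other genes were not examined in this way.

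**Figure D5:**
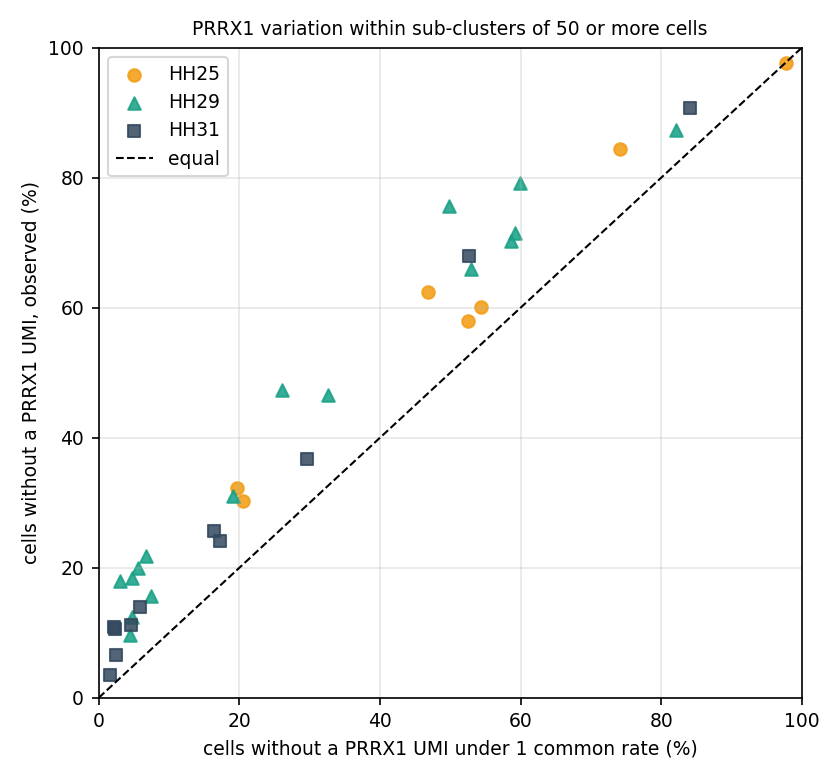
Share of cells without a PRRX1 UMI (%), observed (vertical) and under 1 common rate per UMI (horizontal), for each sub-cluster of at least 50 cells at HH25, HH29 and HH31; the dashed line marks equality. Points lie above the line apart from the skin of HH25, which lies on it at 97.7%.

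Between technical replicates of HH29 the pattern over sub-clusters was repeated while the level was not. Library-wide *PRRX1* was 785 ± 118 CPM (SD, n = 3 technical replicates) and ranged between 678 and 912 CPM. In the mesenchyme it was 1230 ± 175 CPM, in the nsCT 1168 ± 128 CPM, in the distal mesenchyme 540.2 ± 66 CPM and in the interdigit 837 ± 134 CPM. Over 16 sub-clusters of at least 50 cells, log2 levels of replicate pairs had Pearson correlations of 0.915, 0.919 and 0.941. Levels in small sub-clusters varied most, with 366, 122.5 and 51.5 CPM in the smooth muscle and 0, 238 and 566 CPM in the leukocytes, where replicate 1 had 0 UMIs in 9 cells and the interval reached 101 CPM.

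Finally, genes were ranked by how closely their levels over sub-clusters followed those of *PRRX1*, as the mean over the stages of Pearson's r of log2(CPM + 10) over 7, 16 and 11 sub-clusters. Among 1949 genes seen in at least 10% of the cells of every stage, the median of this mean was 0.21. The closest were *CRABP-I*, a retinoic acid binding protein (0.875), *PITX1* (0.874), *MECOM*, a zinc finger transcription factor (0.863), *STAU2*, an RNA-binding protein (0.861), and *HP1BP3*, a heterochromatin protein (0.850). *PRRX2* ranked 8th and *TWIST1* 29th, with 0.845 and 0.783. Farthest from *PRRX1* were *SH3BGRL3*, a thioredoxin-like protein (−0.729), *MYH9*, a non-muscle myosin (−0.723), the metallothionein *MT4L* (−0.715), *TOMM7*, of the mitochondrial import complex (−0.658), and *BTG1*, an antiproliferative gene (−0.650). The sub-clusters of a stage share a library, and ectoderm is among them. With Spearman's rho, 3 of these 10 genes stayed among the named. *CRABP-I*, *PITX1* and *MECOM* did not follow *PRRX1* into skeletal cells at HH25, where their log2 ratios to mesenchyme were 0.80 (0.68 to 0.92), 0.61 (0.40 to 0.82) and 0.50 (0.32 to 0.68). The co-expression module of HH29 cells in which the study placed *PRRX1* has 11 other genes among those ranked, with median r of 0.54, 0.78 and 0.70 over the 3 stages, beside 0.15, 0.11 and 0.39 over all genes. The module was chosen on the HH29 cells and is not independent evidence there.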

How the data were processed

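The authors deposited raw UMI counts per cell and gene, made with the Cell Ranger software (version 2) or the DropSeq pipeline on the Ensembl chicken assembly Gallus_gallus-5.0, with scran cell cycle scores (S, G2M) and Seurat cluster numbers for each cell. The scores deposited by the authors run between 0 and 1 and were used only to form bins of cells. The stated filters were applied again: cells over 4 times the mean or under 20% of the median UMI number, or with over 10% UMIs from 10 mitochondrial genes, were left out. The stated ribosomal limit was not applied and doublets were not removed. Total UMIs were 13778575, 23846769 and 13281515, with at least 1103, 920 and 1066 UMIs per cell.

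Counts were summed over cells. Levels have exact Poisson intervals, shares Clopper-Pearson intervals and log2 ratios exact conditional intervals. The interval computation was tested on simulated Poisson counts. These lack the variation between cells beyond a common rate that *PRRX1* had, so the test checks the computation only. Genes entered the background share with at least 20 UMIs in both populations together. Thinning drew 1000 UMIs per cell (seed 11), leaving out shallower cells. Cells were clustered again without *PRRX1* with Seurat 5.3.0 (R 4.3.3), 2000 variable genes, 20 components, 20 neighbours and resolutions of 1.1 (HH25) and 1.4, and each new cluster took the class of the deposited sub-cluster with which its Jaccard index was highest. Other steps used Python 3.11.15, numpy 2.4.6, pandas 2.3.3 and scipy 1.17.1.

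*PRRX1*, its paralog, the gene lists and the rule of the 5 most and 5 least similar genes were chosen with earlier results of these data known. Symbols came from the study's marker tables, which named 3137 of 11442 identifiers. Listed genes without an identifier there (*MEIS2*, *ALX4*, *SHOX*, *TNC*, *ZEB2*) were not analysed here.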

Additional observations from a re-analysis of the deposited data

How the results depend on the processing

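Of the alternative values of the comparisons, 101 lay within the interval of the reported value (a count of sub-clusters among them within 1.5 times) and 15 outside it, and no direction of a called difference was reversed. The skeletal to mesenchyme ratio of HH25 was −0.89 with ribosomal protein and mitochondrial genes left out of the denominator, −1.14 with each cell weighted equally and −0.30 in rebuilt clusters. That of HH29 was −1.78 in rebuilt clusters, and that of HH31 was −1.21 with the reduced denominator and −1.32 in rebuilt clusters. Rebuilt clusters, for these classes chosen after seeing the data, also moved the distal ratio of HH25 to −0.95 and of HH29 to −1.13, the interdigit ratio of HH29 to −0.28, and the nsCT ratio of HH25 to 0.31 and of HH31 to 0.35. The late to early chondrocyte ratio of HH29 was −1.32 with each cell weighted equally. The ratio by G2M score at HH31 was 0.044 (−0.060 to 0.15) for scores of at least 0.5 against scores under 0.5. By that split the ratio by S score at HH31 was −0.12 (−0.19 to −0.04), an interval without 0. Intervals without 0 were also found for the S score at HH25 with the reduced denominator, 0.12 (0.03 to 0.22), and for the G2M score at HH31 with 12 mitochondrial genes in the filter, −0.11 (−0.22 to −0.0048). The causes were not tested.

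With each technical replicate of HH29 left out in turn, the ectoderm to mesenchyme ratio ranged between −3.65 and −2.61, the skeletal ratio between −2.12 and −2.07, the late to early ratio between −1.66 and −1.33, the cartilage bin ratio between −2.83 and −2.44, and the S and G2M ratios between −0.057 and 0.035 and between 0.00030 and 0.062. All deposited barcodes in place of the filtered cells, 12 mitochondrial genes in place of 10 in the filter, and bins taken within bins of depth, the last 2 chosen after seeing the data, moved none of these results outside the interval of its reported value. Thinning to 900 UMIs with another seed again placed 26 sub-clusters above the ectoderm. Libraries could not be paired because each stage has 1 library. Pairing was limited to populations within each technical replicate of HH29. Levels below about 3 UMIs per population, as in the AER of HH25, are not resolved at this depth.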
